A study of Rattus norvegicus with 23 samples.

Results

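The left atrium (LA) of the rat heart was compared with both ventricles (V), gene by gene, on 11 of the 23 arrays of the series. LA had 4 arrays, and V had 7, of which 4 were of the left ventricle (LV) and 3 of the right ventricle (RV). A gene entered the comparison by detection alone, when it was well above background on every LA array or on every V array. This held for 12248 of the 16544 genes with a named probe. Of these 12248 genes, 11188 were well above background on all 11 arrays, 738 on every LA array and some V arrays, 23 on every LA array and no V array, 295 on every V array and some LA arrays, and 4 on every V array and no LA array.

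The samples were taken from 12 Wistar rats, all male and 8 to 11 weeks old, and no group carried a treatment or a genetic change. LA was the part next to the pulmonary vein (PV), LV was a mass of the chamber wall and RV was the free wall, all taken from hearts washed with a cold saline. The methods state that each LV mass was cut into 3 pieces that served as samples, and the sources used here do not tie arrays to rats, so the p-values measure the spread between these samples, which may be technical. The other 12 arrays, of the sinoatrial node (SA), PV and the pulmonary artery (PA), were used to show where a gene stands in other regions and in alternative fits of LA against V.

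The atria fill the ventricles under low pressure, release natriuretic peptides into the blood, relax early and repolarize fast, whereas the ventricles carry the pressure load of the circulation. The chambers use different isoforms of the myosin light chains, different small regulators of the sarcoplasmic reticulum calcium pump and different sets of ion channels. Their identity is set during development by transcription factors such as the Iroquois and Hey families in the ventricle and COUP-TF proteins in the atrium.

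Between 58.6% and 79.8% of the probes were well above background on each of the 11 arrays. A level is log2(normalized signal + 1) for the highest probe of a gene on an array, and a difference of 1 between 2 levels is a 2-fold change of signal. The test covered 15633 genes with a level over 4 on any of the 11 arrays, of which 5240 (33.5%) differed between LA and V at an adjusted p below 0.05 by limma. There were 2496 genes (16%) higher in LA and 2744 (17.6%) higher in V, and the median LA minus V difference over all genes tested was -0.08. After background correction by normexp, 34% of the differing genes were higher in LA, against 47.6% here, and 4133 genes were higher in V. Among the 11188 genes detected on all 11 arrays, 2165 (19.4%) were higher in LA and 2439 (21.8%) in V. Most differences were moderate in size. Of these genes, 422 were higher in LA and 563 in V by at least 1 log2 unit, 47 and 31 by at least 3, and 3 and 2 by at least 6.

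**Figure D1:**
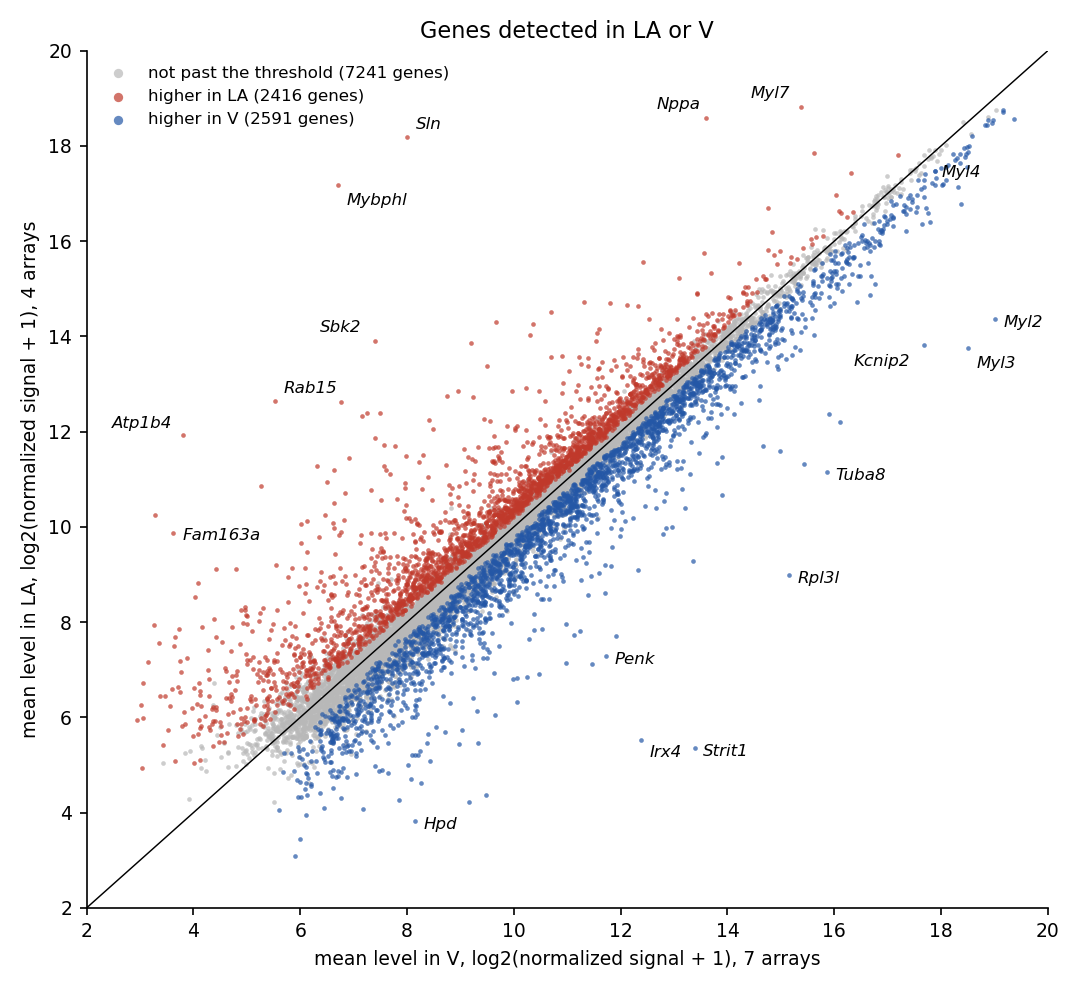
Mean level of the 12248 genes in V (7 arrays, x axis) and in LA (4 arrays, y axis), both as log2(normalized signal + 1). The line marks equal levels, red and blue points are genes past the threshold in LA or V, and *Sln* and *Mybphl* lie farthest above the line while *Strit1* and *Irx4* lie farthest below it.

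The labelled tissues were first checked with marker genes of atrial and ventricular myocytes. Of 8 atrial genes, 5 were higher in LA, 1 was higher in V and 2 did not pass the threshold, and of 6 ventricular genes 5 were higher in V, against 16% higher in LA and 17.6% higher in V among all genes tested. *Mybphl*, which encodes a protein of the myosin filament, had levels of 17.15, 17.35, 17.25 and 17.01 on the LA arrays and of 5.91 to 9.09, with a median of 6.49, on the V arrays. It was higher in LA by 10.48 log2 units (standard error 0.52, limma adjusted p = 1.9e-07). *Sln* encodes sarcolipin, a small inhibitor of the calcium pump, and had levels of 18.10, 18.10, 18.25 and 18.29 in LA and of 6.44 to 10.66, median 7.68, in V. The difference was 10.18 (standard error 0.67, adjusted p = 1.7e-06), and no V array came near the LA arrays for either gene. The 2 probes of *Mybphl* gave 8.74 and 10.95.

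The atrial regulatory light chain *Myl7* was between 18.70 and 18.99 on the 4 LA arrays and between 13.99 and 16.34 on the 7 V arrays, a difference of 3.45 (standard error 0.41, adjusted p = 9.3e-05). *Kcnj3*, a subunit of the channel opened by acetylcholine, was between 12.55 and 13.20 in LA and between 9.73 and 11.17 in V, a difference of 2.69. *Nppa*, the atrial natriuretic peptide, was at 18.57, 18.30, 18.74 and 18.76 in LA, 16.23, 15.29, 14.55 and 16.26 in LV, and 10.70, 11.80 and 10.38 in RV. Its LA minus V difference was 4.99 (standard error 1.21, adjusted p = 0.0087), and its ventricular levels fell into separate ranges for the left and the right side.

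Other genes on the atrial list did not follow it. The atrial essential light chain *Myl4* was between 17.43 and 17.95 in LA and between 17.59 and 18.00 in V, and the groups overlapped (difference -0.07, standard error 0.12, adjusted p = 0.68). Its sign turned with quantile normalization, with RV alone as V and without LA replicate 2. *Gja5*, a connexin of atrial and conduction tissue, was higher in V, with 7.97, 7.62, 7.63 and 7.84 in LA against 9.19 to 10.01 in V, by 1.82 log2 units (adjusted p = 7.8e-06). *Bmp10*, a growth factor of the atrial wall, was well above background on 1 LA array and 3 V arrays and did not pass the threshold (adjusted p = 0.4).

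The ventricular list separated the chambers except for *Myh7*. The regulatory light chain *Myl2* was at 14.84, 15.11, 14.04 and 13.48 in LA and between 18.77 and 19.23 in V, which put V higher by 4.65 (standard error 0.27, adjusted p = 5.8e-07). Its 2 probes gave 4.65 and 6.93 log2 units. The essential light chain *Myl3* was at 13.94, 13.80, 13.34 and 13.98 in LA and between 18.30 and 18.70 in V, higher in V by 4.75 (standard error 0.13, adjusted p = 4.9e-09). *Irx4*, an Iroquois transcription factor, was at 5.61, 6.32, 5.17 and 4.97 in LA and between 12.21 and 12.62 in V, a difference of 6.87. *Strit1* encodes DWORF, a peptide that raises the activity of the calcium pump, and was at 6.65, 6.10, 4.82 and 3.89 in LA and between 13.03 and 13.73 in V. It was higher in V by 8.03 (standard error 0.43, adjusted p = 3.9e-07), and the LA array at 3.89 was not well above background. *Hey2*, a repressor of atrial genes in the ventricle, was higher in V by 1.44. The slow myosin heavy chain *Myh7* was between 18.12 and 18.42 in LA and between 18.37 and 18.87 in V, with an adjusted p of 0.051.

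**Figure D2:**
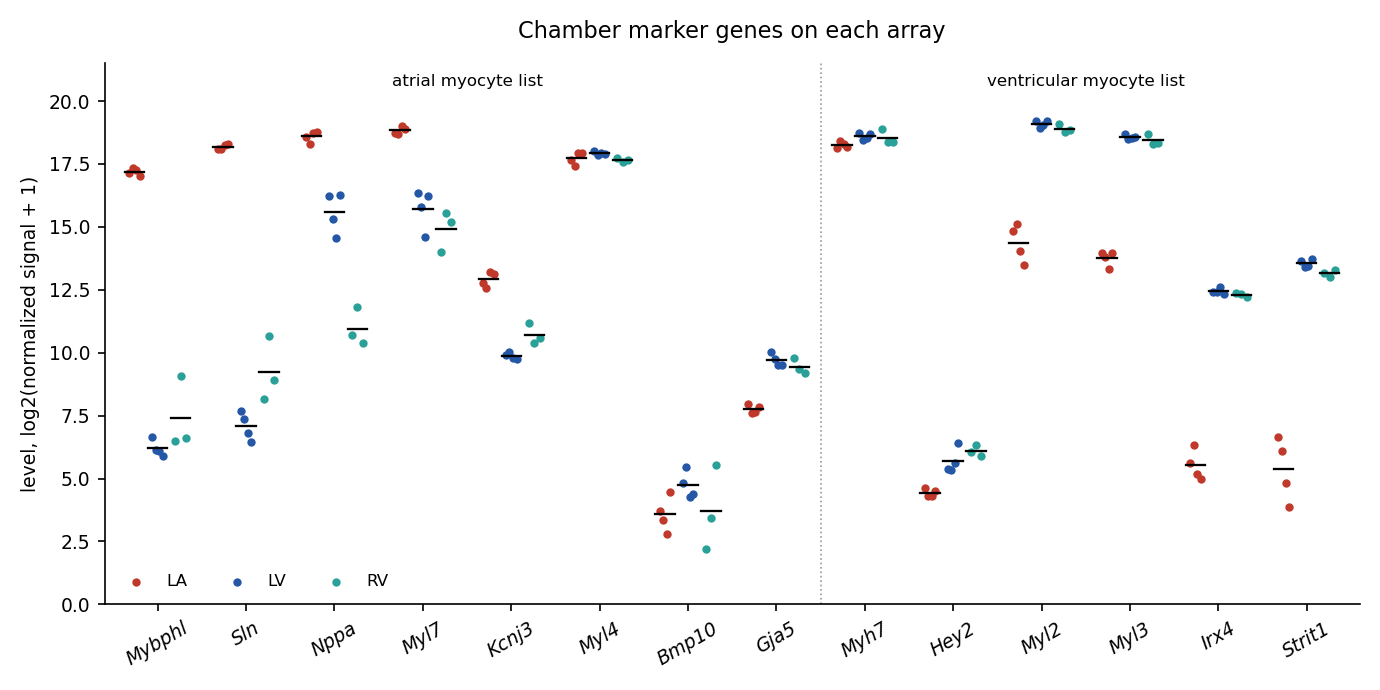
Level of the genes of the atrial and ventricular myocyte lists on each LA, LV and RV array (points, y axis in log2(normalized signal + 1)), with bars at the mean of each region. *Myl4* and *Myh7* overlap between LA and V, *Gja5* is higher in LV and RV, and *Nppa* is split between LV and RV.

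Traces of the other chamber's genes were not the same on every array. RV replicate 2 had the highest V level of *Mybphl*, 9.09, with the other V arrays between 5.91 and 6.65, and the highest V level of *Sln*. Without this array the differences were 10.87 and 10.62. Over the 12 genes with the largest excess in LA that were detected on all 11 arrays, however, the highest V level lay on LV replicate 1 for 5 genes and on RV replicate 2 for 4. *Irx4*, *Myl2* and *Strit1* were highest in LA replicates 1 and 2. Over the 12 such genes higher in V, the highest LA level lay on LA replicate 2 for 6, on LA replicate 4 for 4 and on LA replicate 1 for 1. *Irx4* and *Strit1* were higher in LA than in SA, by 1.71 (adjusted p = 0.0019) and 1.67 (adjusted p = 0.031) in the fit of all 6 regions. The part of tissue from a neighbouring chamber in these levels was not tested. In bulk tissue, a lower level can come from fewer cells of a type or from less RNA per cell, and these cannot be told apart here.

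The upstream sequences of 5 of these genes are shown because of the size of their chamber differences. Within the atrial and ventricular myocyte lists, these were the largest among the genes with an entry in the RefSeq promoter table. There was no entry for *Sln*, *Myl2* or *Strit1*. Each run is the 250 bases before the annotated start on build GRCr8, written 5′ to 3′ on the strand of the gene. Capitals mark matches on either strand to 4 motifs. Those searched were AGATAA for the GATA factors, AGGTGT for the T-box factors, TATAAA for the box bound by the general factor of that name, and AAGGTCA, the extended half-site of nuclear receptors.
*Mybphl*, chr2:198693202-198693451, plus strand: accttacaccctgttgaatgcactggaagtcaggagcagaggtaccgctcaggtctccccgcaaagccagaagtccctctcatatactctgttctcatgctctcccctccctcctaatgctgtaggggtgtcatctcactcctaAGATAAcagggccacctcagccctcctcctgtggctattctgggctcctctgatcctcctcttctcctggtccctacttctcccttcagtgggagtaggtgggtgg
*Nppa*, chr5:163711934-163712183, plus strand: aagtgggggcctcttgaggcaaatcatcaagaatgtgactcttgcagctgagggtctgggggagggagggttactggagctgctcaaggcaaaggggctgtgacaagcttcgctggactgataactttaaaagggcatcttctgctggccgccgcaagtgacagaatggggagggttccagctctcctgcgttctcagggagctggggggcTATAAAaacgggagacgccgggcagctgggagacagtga
*Myl7*, chr14:84996625-84996874, minus strand: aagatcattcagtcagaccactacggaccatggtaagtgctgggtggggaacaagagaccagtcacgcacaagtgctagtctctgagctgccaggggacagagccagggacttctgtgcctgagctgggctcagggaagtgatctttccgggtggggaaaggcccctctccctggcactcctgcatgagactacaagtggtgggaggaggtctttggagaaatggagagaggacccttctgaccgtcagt
*Myl3*, chr8:119616844-119617093, plus strand: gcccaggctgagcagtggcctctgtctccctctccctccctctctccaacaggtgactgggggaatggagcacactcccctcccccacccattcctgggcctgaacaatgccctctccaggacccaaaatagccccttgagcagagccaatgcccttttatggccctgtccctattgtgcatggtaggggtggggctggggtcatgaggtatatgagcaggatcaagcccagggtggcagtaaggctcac
*Irx4*, chr1:31868090-31868339, minus strand: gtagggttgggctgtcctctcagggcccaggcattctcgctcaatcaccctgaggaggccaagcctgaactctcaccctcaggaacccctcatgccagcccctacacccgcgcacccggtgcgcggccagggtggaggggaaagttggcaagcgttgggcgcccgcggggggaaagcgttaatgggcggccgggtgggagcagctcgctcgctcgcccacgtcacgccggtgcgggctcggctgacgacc
*Mybphl* held AGATAA from 106 to 101 bases before the start and *Nppa* held TATAAA from 39 to 34 bases before it, while the other 3 runs held none of the 4 motifs in these letters. Over the whole window of the table, which runs from 250 bases before to 50 bases after the start, AGATAA was found in 9.82% of the genes at least 1 log2 unit higher in LA and in 9.67% of those higher in V, against 8.86% of genes tested and 11.3% of all promoters. AGGTGT was found in 10.4% and 15.1%, against 12% of genes tested and 13.4% of all promoters. TATAAA was found in 12% and 13%, against 11.5% and 14.3%. These shares cover 326 and 424 genes with a promoter entry, and they describe letters in a window, not binding.

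Several genes without a place on the marker lists differed by as much as the markers. Among the 12 genes with the largest excess in LA that were well above background on all 11 arrays, *Sbk2*, a serine/threonine kinase, was between 13.44 and 14.24 in LA and between 6.73 and 8.04 in V, a difference of 6.52 (standard error 0.27, adjusted p = 7.4e-08). *Gpr15lg*, which encodes a ligand of the receptor GPR15, was higher by 5.86, and *Epha4*, an ephrin receptor, by 5.17, with levels of 12.15 to 12.45 in LA and 6.58 to 7.83 in V. *Rxfp1*, the relaxin receptor, was at 12.37, 11.94, 12.62 and 12.65 in LA and between 6.95 and 8.60 in V, higher in LA by 4.89 (standard error 0.28, adjusted p = 5.8e-07). *Stard10*, a lipid transfer protein, was between 13.71 and 14.09 in LA and between 9.03 and 9.51 in V, a difference of 4.65 with a standard error of 0.11. *Art1*, an ADP-ribosyltransferase, and *Ildr2* were higher in LA by 4.64 and 4.58. *Mup5* and *Obp3* were higher by 4.95 and 5.16, but both belong to a family of near-identical lipocalin genes whose probes can share targets.

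Further genes were found in LA and were at or near background in V. *Fam163a* was at 10.13, 9.97, 9.46 and 9.90 in LA and stayed below the detection call on all 7 V arrays, where its mean was 3.61. It was at least 48.6-fold higher in LA (adjusted p = 1.6e-07). For this bound, the level on each V array was raised to the dimmest detected probe of that array unless the gene was already brighter. By the same bound *Shox2*, a transcription factor of the sinus node, was at least 10.9-fold higher, *Oit3* at least 9.93-fold, *Mettl21c*, a protein methyltransferase of muscle, at least 7.91-fold and *Tex12* at least 7.51-fold. *Atp1b4*, of the family of sodium pump beta subunits, was between 11.71 and 12.21 in LA and well above background on 1 V array, and was higher in LA by 8.14, or by 7.52 with undetected arrays raised to the same limit, and its 2 probes gave 5.68 and 8.26. *Rab15*, a small GTPase of endosomes, was higher by 7.11, *Aldh1b1*, a mitochondrial aldehyde dehydrogenase, by 5.60, and *Tas2r119*, a taste receptor gene, by 4.70. Of the 7 V arrays, 6, 4 and 2 detected these 3 genes, in that order.

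On the ventricular side, *Rpl3l* encodes a ribosomal protein that replaces its common form in striated muscle. It was at 9.19, 9.19, 8.61 and 8.96 in LA and between 15.02 and 15.35 in V, higher in V by 6.16 (standard error 0.12, adjusted p = 3e-10). *Tuba8*, an alpha-tubulin, was between 11.04 and 11.37 in LA and between 15.65 and 15.98 in V, a difference of 4.70. *Kcnip2* encodes KChIP2, the subunit that traffics the channels of the transient outward current. It was at 13.64, 13.35, 13.92 and 14.39 in LA and between 17.40 and 17.97 in V, a difference of 3.86 (standard error 0.18, adjusted p = 1.2e-07). *Zmiz2*, a transcriptional coactivator, and *Gpsm1*, a regulator of G protein signaling, were higher in V by 4.12 and 3.90. *Fcer2*, the low-affinity IgE receptor, was higher by 4.20, *Aqp7*, a channel for glycerol and water, by 4.06, and *Cdh22*, a cadherin, by 3.87. *Aqp7* was at 9.81 and 10.31 in LA replicates 1 and 2 and at 8.49 and 8.55 in LA replicates 3 and 4.

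Some ventricular genes were dim in LA. *Hpd*, an enzyme of tyrosine breakdown, was between 7.49 and 8.88 in V and undetected on all 4 LA arrays, at least 16-fold higher in V (adjusted p = 1.5e-06). *Scin*, an actin-severing protein, was at least 3.99-fold higher in V. *Trim50*, a ubiquitin ligase, was well above background on 3 LA arrays and higher in V by 5.12, or 4.71 with the undetected array raised to the dimmest detected probe. *Fam81a* was well above background on 1 LA array and higher in V by 4.93, or 4.68 in the same way, and *Sctr*, the secretin receptor, was well above background on 2 and higher in V by 3.58.

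V was not a single level for all genes. In a limma fit of LA, LV and RV as 3 groups, 52 genes (0.333% of those tested) differed between LV and RV, so that their LA minus LV and LA minus RV differences were unequal. *Nppa* was 4.62 higher in LV than in RV (adjusted p = 0.0035). *Penk*, which encodes the precursor of the enkephalins, was at 7.35, 7.91, 7.19 and 6.71 in LA, 13.47, 13.52, 13.35 and 14.09 in LV, and 9.19, 9.50 and 8.92 in RV. All 7 V arrays were above LA, and LV exceeded RV by 4.40 (adjusted p = 0.00028). The Iroquois gene *Irx2* was between 8.68 and 9.59 in LV, between 6.22 and 7.27 in RV and between 3.57 and 5.18 in LA, higher in LV than in RV by 2.48 (adjusted p = 0.0499). The sarcomere genes *Myot*, *Pdlim5* and *Xirp2* were higher in LV than in RV by 1.53, 0.77 and 0.77, and *Gja3*, a connexin, and *Fmod*, the matrix protein fibromodulin, were higher in RV by 1.07 and 0.87. *Hopx*, a homeodomain protein of cardiac muscle, was higher in LA than in V by 1.48, and in LV than in RV by 1.22 (adjusted p = 0.035), but its dimmer probe gave an LA minus V difference of -0.35.

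**Figure D3:**
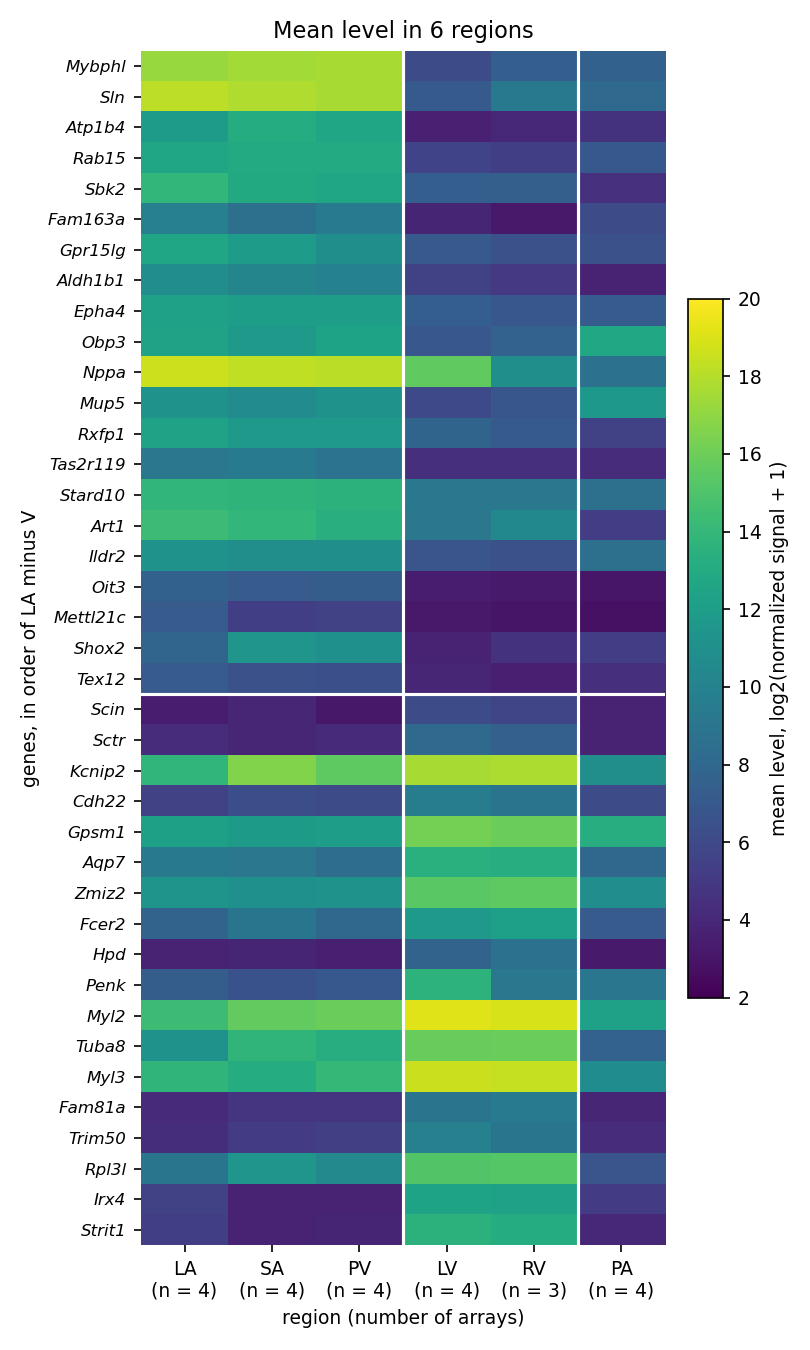
Mean level of the genes with the largest differences in LA, SA, PV, LV, RV and PA (columns, colour in log2(normalized signal + 1)), in order of LA minus V from top to bottom. The 21 genes higher in LA lie above the horizontal white line and the 18 genes higher in V below it, with SA and PV next to LA and PA on the far right.

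These 21 genes higher in LA and 18 higher in V were also read in the other regions. Since these genes were chosen by LA minus V, a level of SA or PV on the LA side of the same V arrays is a description only. In the fit of 6 regions, where 2461 genes (15.7%) differed between LA and SA, 5 of the 21 did so, 3 of them higher in LA. *Sln* was 17.85 ± 0.17 (SD, n = 4) in SA, *Mybphl* 17.51 ± 0.07 and *Nppa* 18.31 ± 0.22, none of them past the threshold against LA. *Shox2* was higher in SA than in LA by 3.5, and *Atp1b4* by 1.21. Of the 18 ventricular genes, 7 differed between LA and SA, 2 of them, *Irx4* and *Strit1*, higher in LA. *Kcnip2*, *Tuba8* and *Rpl3l* were higher in SA than in LA, by 2.79, 2.60 and 2.43, with SA levels between those of LA and V. In PA, *Mup5* and *Obp3* had means of 11.61 and 12.79, against 11.27 and 12.40 in LA, with no test of this difference.

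The thick filament list holds the light chains and *Mybphl* described above. Of its 14 genes tested, 4 were higher in LA and 4 in V (list median -0.11, against -0.08 over all genes). The shares over all genes tested were 16% and 17.6%, and over genes detected on all 11 arrays 19.4% and 21.8%. *Myh7b*, a myosin heavy chain, was between 8.96 and 9.39 in LA and between 11.11 and 11.97 in V, higher in V by 2.51. *Myh6*, the fast cardiac heavy chain, had a mean of 18.76 ± 0.19 (SD, n = 4) on the LA arrays and 19.16 ± 0.18 (SD, n = 7) on the V arrays, higher in V by 0.39 (adjusted p = 0.025). It did not pass the threshold after quantile normalization (adjusted p = 0.924) or without LA replicate 2 (adjusted p = 0.084). *Mybpc1*, the slow skeletal form of myosin-binding protein C, was well above background on all LA arrays and on no V array, at least 3.4-fold higher in LA.

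Of 16 genes of the thin filament, 11 were higher in V and 1 in LA (median -0.38), against 17.6% and 16% of all genes tested. The count in LA was 2 without LA replicate 4 or RV replicate 2. In V it was only 6 after quantile normalization, 3 with RV alone as V and 7 without LA replicate 1 or 2. *Acta1*, the skeletal actin, was at 13.57, 12.84, 14.21 and 14.49 in LA and between 14.72 and 15.70 in V, higher in V by 1.48 (standard error 0.30, adjusted p = 0.0029). *Tnnc1* was higher in V by 0.64, with an adjusted p of 0.0891 after quantile normalization, and *Tmod4*, a capping protein, by 0.85. *Tnni1*, the slow skeletal troponin I, went the other way, with 10.22 to 11.56 in LA and 8.33 to 9.49 in V, higher in LA by 1.98.

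In the Z disc and costamere, 4 of 22 genes were higher in LA and 7 in V, against 16% and 17.6% of all genes tested. *Fhl2*, a LIM protein that binds titin, was between 12.03 and 12.63 in LA and between 15.58 and 16.33 in V, higher in V by 3.53 (standard error 0.16, adjusted p = 1.1e-07). *Xirp2* and *Pdlim5* were higher in V by 1.1 and 0.99. *Pdlim3*, a partner of alpha-actinin, was higher in LA by 1.65, although its 2 probes gave 0.11 and 1.65, and *Csrp3*, the muscle LIM protein, was higher in LA by 0.62.

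Of 34 genes of calcium handling tested, 9 were higher in LA and 7 in V (median -0.11), against 16% and 17.6% of all genes tested. The largest differences were those of the small regulators *Sln* and *Strit1*. *Atp2a2*, the cardiac calcium pump, was 17.84 ± 0.13 in LA (SD, n = 4) and 17.96 ± 0.11 in V (SD, n = 7), and *Ryr2*, the release channel, was 14.37 ± 0.14 and 14.22 ± 0.13, neither past the threshold (adjusted p = 0.32 and 0.25). After quantile normalization *Atp2a2* was higher in LA by 0.20 (adjusted p = 0.026), and for both genes the probes differed in sign. *Pln*, or phospholamban, an inhibitor of the pump, was at 16.67, 16.45, 16.33 and 15.97 in LA and between 17.30 and 17.93 in V, higher in V by 1.28 (adjusted p = 0.00012). *Atp2a1*, the pump of fast skeletal muscle, was between 9.73 and 10.18 in LA and between 6.56 and 6.99 in V, higher in LA by 3.12. *Itpr1*, a receptor for inositol trisphosphate, was higher in LA by 1.29, *Camk2b* by 1.90 (0.99 and 2.31 by its detected probes), and *Jph3*, a junctophilin dim on all V arrays, at least 2.74-fold. *Atp2b2*, a plasma membrane calcium pump, was higher in V by 2.01.

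In the list of 21 inward rectifier, 2-pore and calcium-activated potassium channels, 5 genes were higher in LA and 5 in V, or 3 in V without LA replicate 1 or 2. Over all genes tested, the shares were 16% and 17.6%. *Kcnj5*, the partner of *Kcnj3* in the acetylcholine-activated channel, was between 14.54 and 14.77 in LA and between 11.90 and 12.34 in V, higher in LA by 2.55 (standard error 0.11, adjusted p = 7.4e-08). *Kcnk2*, which encodes the stretch-sensitive channel TREK-1, was higher in LA by 2.17 and the inward rectifier *Kcnj12* by 1.41. The subunits of the vascular type of ATP-sensitive channel, *Kcnj8* and *Abcc9*, were higher in V by 1.54 and 1.04. Of 27 voltage-gated potassium channel genes, 3 were higher in LA and 4 in V, among them *Kcnip2*. After normexp, 8 were higher in V. *Kcnh2*, the channel of the rapid delayed rectifier, was higher in LA by 0.68 and *Kcna4* by 0.57. *Kcnd2* and *Kcnd3*, the pore subunits served by KChIP2, did not differ between LA and V at the threshold (differences -0.59 and 0.55, adjusted p = 0.35 and 0.11), and both were higher in RV than in LV, by 1.6 and 0.87.

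Of 31 sodium, calcium, HCN and chloride channel genes, 7 were higher in LA and 8 in V, against 16% and 17.6% of all genes tested. The T-type calcium channels were both higher in LA. *Cacna1g* was at 11.38, 11.47, 12.04 and 11.11 in LA and between 7.33 and 8.35 in V, a difference of 3.51 (standard error 0.22, adjusted p = 9.8e-07), and *Cacna1h* was between 10.96 and 11.49 in LA and between 6.91 and 8.15 in V, a difference of 3.58. The L-type channel *Cacna1c* was higher in V by 0.91. *Scn4b*, a beta subunit of sodium channels, was at 8.83, 8.80, 9.31 and 9.43 in LA and between 11.83 and 12.63 in V, higher in V by 3.24 (standard error 0.19, adjusted p = 5.8e-07). The pacemaker channels *Hcn2* and *Hcn4* were higher in V by 3.03 and 1.34.

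**Figure D4:**
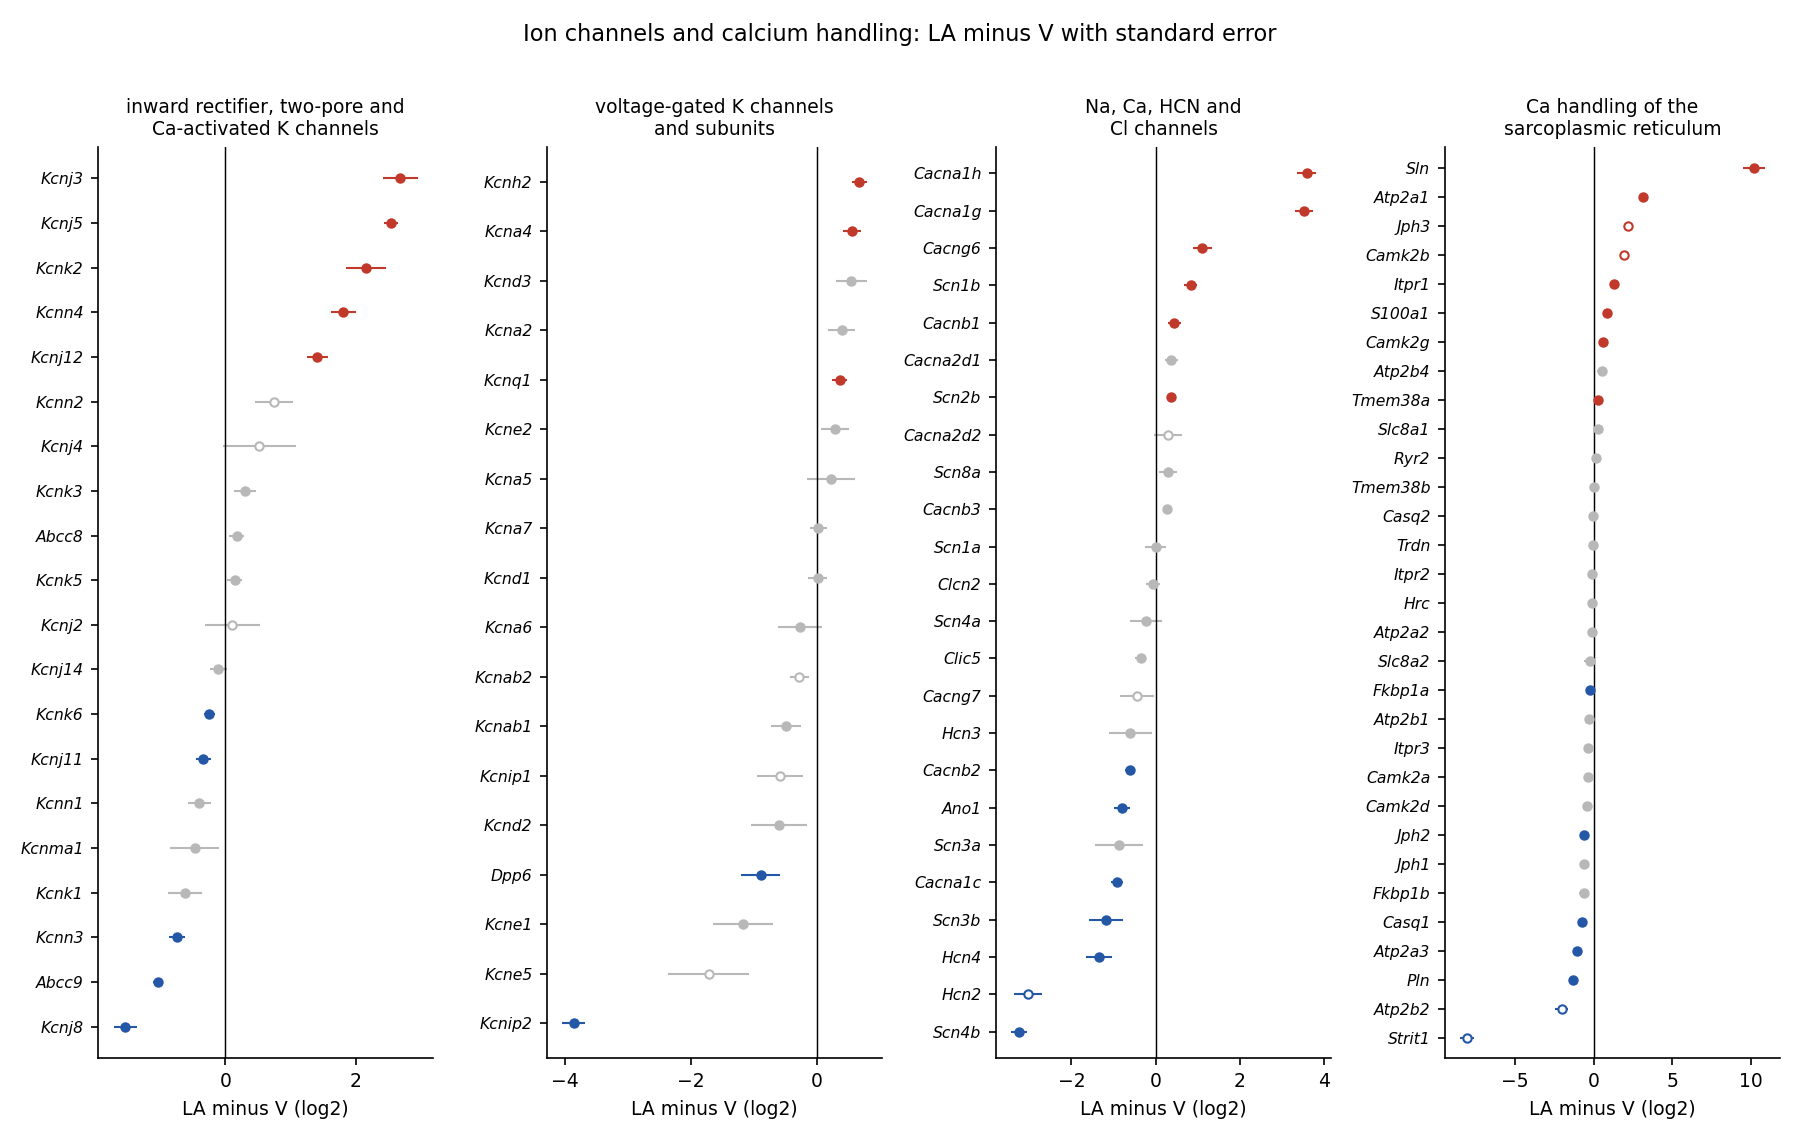
LA minus V difference (log2, x axis) with its standard error for the reported genes of 4 lists of ion channels and calcium handling that entered the comparison. Red points passed the threshold with LA higher, blue with V higher, grey did not pass it, and open points mark genes with arrays that were not well above background; *Sln*, *Strit1* and *Kcnip2* lie far outside the range of most others.

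At the cell junctions, 4 of 15 genes were higher in LA and 5 in V, against 16% and 17.6% of all genes tested. *Gja1*, the connexin of the working myocardium, was 14.07 ± 0.19 in LA (SD, n = 4) and 14.18 ± 0.19 in V (SD, n = 7), with an adjusted p of 0.54. *Gja3* was higher in LA by 1.34 and *Dsc2*, a desmosomal cadherin, by 1.44, while *Pkp2*, another desmosomal protein, was higher in V by 0.61. Of 18 genes of T tubules, caveolae and membrane scaffolds, 4 were higher in LA and 5 in V (in LA, 2 without LA replicate 2 and 1 without LA replicate 3), with *Cavin4*, a muscle protein of caveolae, higher in V by 1.36 and *Cav2* by 0.82.

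Of 9 genes for natriuretic peptides, their receptors and processing, 3 were higher in LA and 1 in V. *Corin*, the protease that activates the atrial peptide, was at 15.72, 15.63, 15.43 and 15.41 in LA and between 13.84 and 14.48 in V, higher in LA by 1.34 (standard error 0.12, adjusted p = 1.6e-05). *Npr3*, the clearance receptor, was between 10.85 and 11.37 in LA and between 7.16 and 8.12 in V, higher in LA by 3.42. *Nppb*, the B-type peptide, was between 13.38 and 16.45 in LA and between 12.87 and 17.01 in V, with an adjusted p of 0.92. *Mme*, or neprilysin, which degrades the peptides, was higher in V by 1.12. In the list for secretory granules and exocytosis, 10 of 23 genes were higher in LA and 3 in V (median 0.09), against 16% and 17.6% of all genes tested. After normexp, 5 were higher in V. *Pam*, the amidating enzyme bound to the membrane of atrial granules, was at 18.00, 17.89, 17.64 and 17.87 in LA and between 15.43 and 15.96 in V, higher in LA by 2.23 (standard error 0.12, adjusted p = 3.5e-07). *Scg5*, a chaperone of prohormone convertase, and *Rab27b*, a GTPase of granule docking, were higher in LA by 1.80 and 1.56, and the convertase *Pcsk6* was higher in V by 1.52.

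Of 35 genes for autonomic receptors and cyclic nucleotides, 5 were higher in LA and 8 in V, near the 16% and 17.6% of all genes tested. The muscarinic receptor *Chrm2* was between 11.29 and 11.69 in LA and between 9.90 and 10.68 in V, higher in LA by 1.17 (adjusted p = 0.00019), and *Rgs6*, which dampens the signal from this receptor to the channel of *Kcnj3* and *Kcnj5*, was higher in LA by 1.09. The adrenergic receptor *Adra1d* was higher in V by 2.37, the phosphodiesterase *Pde8b* by 1.5 and the adenosine receptor *Adora2a* by 1.45. In the vasoactive list, 9 of 24 genes were higher in LA and 4 in V. The latter count was 1 without LA replicate 3 or after quantile normalization, and 2 without LV replicate 3 or 4. *Agt*, or angiotensinogen, was higher in LA by 2.70, with 9.33 to 10.38 in LA and 6.53 to 7.98 in V. *Ramp1*, a partner of the receptor for calcitonin gene-related peptide, was higher by 2.24, and *Nos3*, the endothelial nitric oxide synthase, was higher in V by 0.54.

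The energy metabolism lists lay on the ventricular side. Of 74 subunits of oxidative phosphorylation, 71 were higher in V and 0 in LA, with a median difference of -0.61 against -0.08 over all genes tested. The share higher in V was 17.6% of all genes tested and 21.8% of genes detected on all 11 arrays, as all 74 were. In each list described here with 0 genes higher in LA, the count was also 0 at an unadjusted p below 0.05 by limma. In single refits, 1 gene was higher in LA for fatty acid oxidation without LA replicate 3, for immediate early genes without RV replicate 2 or with the array row as a block, and for lung epithelium without RV replicate 3. For the respiratory subunits, the count in V was 50 after quantile normalization, with 1 gene higher in LA, and 49 with RV alone as V. By complex, 31 of 32 subunits of complex I were higher in V, 4 of 4 of complex II, 10 of 10 of complex III with cytochrome c, 13 of 14 of complex IV and 13 of 14 of ATP synthase. The medians of the complexes were close to each other, from 0.52 higher in V for ATP synthase to 0.66 for complex I. *Uqcrc1*, a core protein of complex III, was at 14.78, 14.74, 14.87 and 14.92 in LA and between 15.72 and 16.04 in V, higher in V by 1.07 (standard error 0.08, adjusted p = 5.6e-06), and *Sdhb* of complex II was higher by 1.16. *Cox8a*, *Atp5f1b* and *Ndufa10* did not pass the threshold, with differences of 0.17, -0.30 and -0.08.

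The AAGGTCA half-site lay in the promoter windows of 9 of the 65 respiratory subunits with an entry (13.8%), against 3.42% of the genes tested and 4.37% of all promoters. It lay in 3.07% of the genes at least 1 log2 unit higher in V and in 1 of 29 genes of fatty acid oxidation. Matches upstream of the start in 5 of the 9 genes are shown because this list moved together, on GRCr8 from RefSeq. Matches near the edge of the window or on 1 chromosome were not eligible. Each has 10 bases on each side, with the motif in capitals and in its forward reading. The letters do not show binding, and their part in these differences was not tested.
*Atp5f1e*, chr3:183680177-183680203, plus strand: cggcagcaggAAGGTCAggcctgggta
*Atp5mg*, chr8:54130410-54130436, plus strand: ccccacttctAAGGTCAggctgccccc
*Ndufb2*, chr4:69334104-69334130, plus strand: ccgaagcaatAAGGTCAgctaagagca
*Ndufs5*, chr5:141264607-141264633, plus strand: ctacttgagcAAGGTCAcacttgagaa
*Uqcrq*, chr10:38090107-38090133, minus strand: gcacccgcggAAGGTCAggccgcgccc
These 5 genes were higher in V by 0.40 (*Atp5f1e*), 0.54 (*Atp5mg*), 0.40 (*Ndufb2*), 0.69 (*Ndufs5*) and 0.82 (*Uqcrq*). *Ndufb2* did not pass the threshold without LA replicate 1 or 2 (adjusted p = 0.0647 and 0.0558), and *Atp5f1e* and *Ndufb2* did not after quantile normalization (adjusted p = 0.853 and 0.219). The motif began 221 bases before the start in *Ndufs5*, 193 in *Ndufb2*, 145 in *Uqcrq*, 21 in *Atp5f1e* and 19 in *Atp5mg*.

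In the list for fatty acid oxidation, 24 of 34 genes were higher in V and 0 in LA (median -0.87), against 17.6% and 16% of all genes tested. *Acadm*, the medium-chain acyl-CoA dehydrogenase, was at 15.06, 15.09, 14.63 and 14.72 in LA and between 16.51 and 16.88 in V, higher in V by 1.79 (standard error 0.11, adjusted p = 1.2e-06). *Acaa2*, the last enzyme of the cycle, was higher by 1.64. *Ucp3*, a mitochondrial carrier induced by fatty acids, was higher by 3.24 but varied within LA, with 6.14, 8.16, 5.39 and 7.62. The transcription factor *Ppara*, which drives many of these genes, was higher in V by 0.97, while for *Cpt1a*, also among its targets, the difference was 0.49 (adjusted p = 0.18).

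Of 32 genes for glycolysis and the use of pyruvate, lactate and ketones, 23 were higher in V and 2 in LA (median -0.66). The shares over all genes tested were 17.6% and 16%. *Bdh1*, the enzyme that opens ketone oxidation, was at 7.36, 7.61, 7.73 and 8.54 in LA and between 11.07 and 11.61 in V, higher in V by 3.44 (standard error 0.20, adjusted p = 6.6e-07). The glucose transporter *Slc2a1* was higher by 2.28 and *Pfkfb2*, which sets the activator of phosphofructokinase, by 2.11, or by 0.52 through the probe of its 4 with the smallest difference. *Pfkp* and *Pgam1*, isoforms that are not the muscle forms, were higher in LA by 1.18 and 0.54. In the citric acid cycle and creatine kinase list, 16 of 22 genes were higher in V and 1, the adenine nucleotide carrier *Slc25a4*, in LA by 0.36. *Cs*, or citrate synthase, was higher in V by 1.13 and *Ckmt2*, the mitochondrial creatine kinase, by 1.59.

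**Figure D5:**
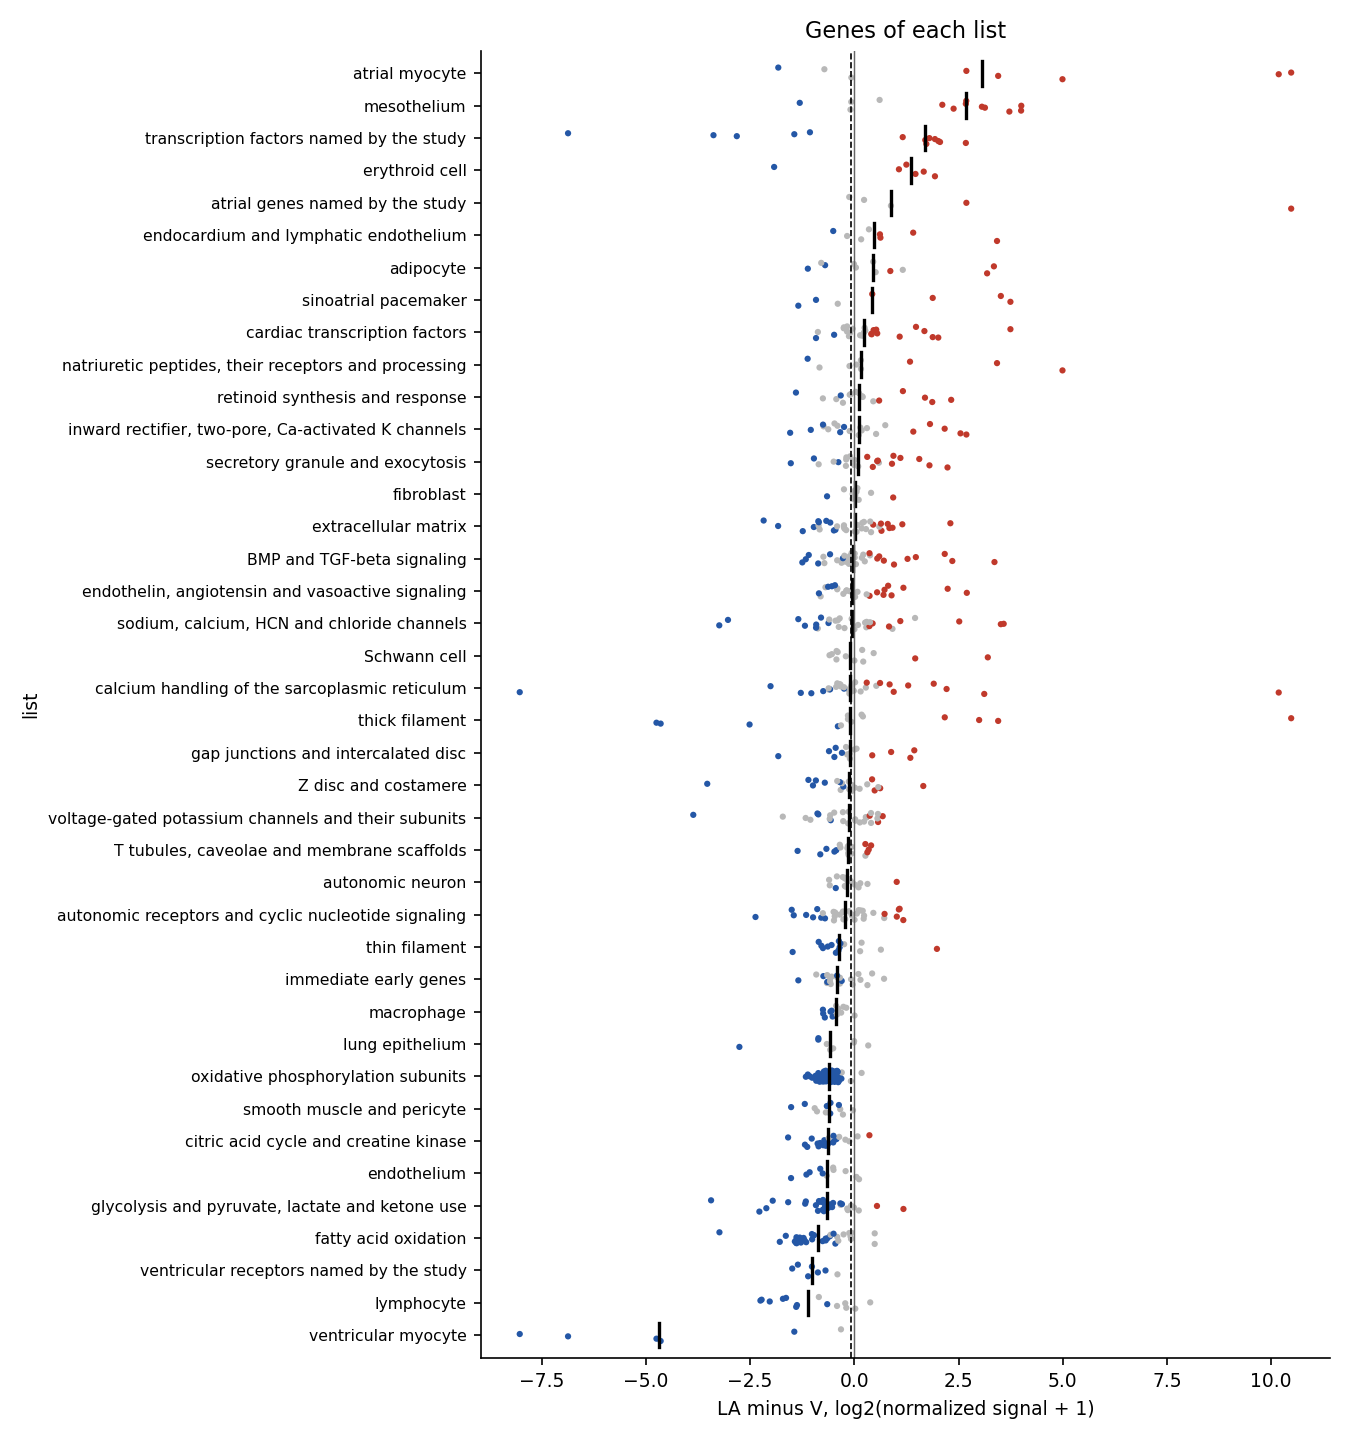
LA minus V difference (log2, x axis) of each tested gene in each list, ordered by the list median (black bar), with genes higher in LA in red, higher in V in blue and those not past the threshold in grey. The dashed line is the median of all genes tested, -0.08, and the energy metabolism lists lie to its left with few or no red points.

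Among 26 cardiac transcription factors, 11 were higher in LA and 2 in V (median 0.24), against 16% and 17.6% of all genes tested. With RV alone as V, 7 were higher in LA and 0 in V, and with LV alone 4 were higher in V. *Tbx18* was at 10.69, 10.44, 10.89 and 10.73 in LA and between 8.22 and 9.35 in V, higher in LA by 1.88 (adjusted p = 5.6e-05). *Nr2f1*, which encodes COUP-TFI, was higher in LA by 1.68, with its dimmer probe at -0.18, and *Tbx20* was higher by 1.09, and *Gata4* gave 0.14 with an adjusted p of 0.23. *Tbx3*, a repressor in the conduction system, was higher in V by 0.92. The study names 14 transcription factors for the rat atrium or ventricle, of which 13 had a tested probe here. That list was drawn by the study from these samples, so it is not independent evidence. Of the 13, 8 were higher in LA and 5 in V. *Bnc1* was higher in LA by 2.67 (its 2 probes gave 0.84 and 2.92), *Sox5* by 2.06, *Tbx5* by 2.01, *Etv1* by 1.93, *Nr2f2*, or COUP-TFII, by 1.80, *Foxc1* by 1.73, *Foxc2* by 1.70 and *Zbtb7c* by 1.16. In V, *Irx2* was higher by 3.38, *Irx5* by 2.82 and *Ebf3* by 1.06, with *Irx4* and *Hey2* as given above. *Bnc1* is also a marker of mesothelium.

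A list of 9 receptors was made from those the study names for the rat ventricle on the same samples, with *Il18r1* and another subunit taken for its IL18 receptors. Of the 7 with a tested probe here, 6 were higher in V, or 2 with RV alone as V, against 17.6% of all genes tested. The largest differences were for *Gpr65*, an acid-sensing receptor of leukocytes, at 1.49, and *Il18r1*, a receptor of interleukin 18, at 1.35. Both were dim on some LA arrays. *Gpr176*, *P2ry10*, *P2ry2* and *Tlr2* were higher by 1.02, 1.11, 0.87 and 0.69, and *Tlr2* did not pass the threshold without LA replicate 3 or 4 (adjusted p = 0.0651 and 0.0521). *P2ry10* did not pass it after quantile normalization (adjusted p = 0.0569). *P2ry13* had a difference of -0.40 and an adjusted p of 0.12. The study chose its genes by an analysis of variance over LA, V and SA and a specificity measure, partly on these same arrays. That is a different measure from LA against V, so neither a match nor a miss here tests its calls. Of 3 genes that the study names for LA in all its species, *Mybphl* and *Kcnj3* were higher in LA, and *Igfbpl1* gave 0.88 (adjusted p = 0.068). *Kcna5*, a potassium channel, and *Myot*, which it names for the human atrium only, gave 0.23 and -0.12 (adjusted p = 0.68 and 0.86).

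Among extracellular matrix genes, 8 of 35 were higher in LA and 10 in V (6 in V without LA replicate 3), against 16% and 17.6% of all genes tested. The collagen *Col1a1* gave 0.40 and did not pass the threshold. *Hapln1*, a protein that links hyaluronan to proteoglycans, was well above background on all LA arrays and on 1 V array and was higher in LA by 2.30, or by 1.67 with undetected arrays raised to the dimmest detected probe. *Fn1*, or fibronectin, was higher in LA by 0.84. *Thbs4*, a thrombospondin, and *Postn*, or periostin, were higher in V by 2.18 and 1.83, and the basement membrane collagen *Col4a1* by 1.24. Without LA replicate 3, *Thbs4* did not pass the threshold (adjusted p = 0.0557). In the BMP and TGF-beta list, 10 of 34 genes were higher in LA and 6 in V, the latter close to the 17.6% of all genes tested, against 16% in LA. The secreted BMP antagonist *Chrdl1* was well above background on 1 V array and higher in LA by 2.35, or by 1.79 with undetected arrays raised to the dimmest detected probe, and *Id4* was higher by 2.17. *Tgfb1* and *Id1*, a target of BMP signals, were higher in V by 1.16 and 1.09. Of 17 genes for retinoids, 5 were higher in LA and 2 in V, or 1 in V without any one of LA replicates 2 to 4, LV replicates 3 and 4 and RV replicates 2 and 3. The retinoic acid synthase *Aldh1a2* was between 7.21 and 8.11 in LA and between 5.34 and 6.58 in V, higher in LA by 1.87, and the binding protein *Crabp2* was higher by 1.69. Of 23 immediate early genes, which respond to handling of tissue, 0 were higher in LA and 5 in V, with *Atf3* higher in V by 1.34. The count in V was 3 without LA replicate 3, LV replicate 3 or RV replicate 2, and 8 after normexp.

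Lists for other cell types also differed between the chambers. Of 13 mesothelial genes, 9 were higher in LA, against 16% of all genes tested, and 1 in V (0 in V without any one of LA replicates 1, 3 and 4, LV replicates 1 and 2 and RV replicate 1), and their summed normalized signal was between 26080 and 32220 on the LA arrays and between 1462 and 7691 on the V arrays. *Msln* was at 13.91, 14.18, 14.17 and 13.85 in LA, 10.26, 8.59, 10.45 and 7.67 in LV, and 12.02, 11.15 and 12.04 in RV, higher in LA than in V by 3.72. *Upk1b* and *Krt19* were each higher in LA by 4.0, and *Krt8* (well above background on 2 V arrays, 2.60 with the others raised) and *Krt18* (1.99 by its dimmer probe) by 3.13 and 3.06, while *Wt1* gave -0.09 and did not pass the threshold. The mesothelial factor *Bnc1* and the retinoid enzyme *Aldh1a2* moved in the same direction, and the part of the outer lining in these differences was not tested. Of 6 erythroid genes, 5 were higher in LA, with a summed signal of 27300 to 47030 in LA and 8330 to 18490 in V. *Hbb* was higher in LA by 1.93 and *Hba-a1* by 1.47, and *Slc4a1*, the anion exchanger of red cells, was higher in V by 1.92. The globin genes are near-identical copies and their probes can share targets.

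In the lists for leukocytes and vessel walls, the genes past the threshold were higher in V. Of 14 lymphocyte genes, 8 were higher in V and 0 in LA, against 17.6% higher in V among all genes tested, with a summed signal of 8865 to 11860 in V and 3551 to 4070 in LA. The cytotoxic genes led the list. *Gzmb*, or granzyme B, was at 7.02, 6.91, 7.25 and 7.82 in LA and between 9.31 and 9.67 in V, higher in V by 2.25 (standard error 0.16, adjusted p = 2.2e-06). *Prf1*, or perforin, was higher by 2.22 and *Nkg7* by 2.03. The T cell gene *Cd3g* was higher in V by 1.39. Of 13 macrophage genes, 6 were higher in V (3 with RV alone as V) and 0 in LA, with *Adgre1* and *Cd68* higher by 0.75 and 0.71. The receptors named by the study, *Gpr65* and *Tlr2* among them, are also genes of leukocytes, and the part of leukocytes in them was not tested. Of 11 endothelial genes, 5 were higher in V and 0 in LA, among them *Cdh5* and *Kdr* by 1.52 and 1.15. *Vwf* was higher in V by 1.07 through its brighter probe, and its other probe gave 1.11 in the opposite direction. Of 12 genes of smooth muscle and pericytes, 6 were higher in V and 0 in LA, with *Rgs5* and *Mcam* higher by 1.52 and 1.19.

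Of 11 fibroblast genes, *Pi16* was higher in LA by 0.93 and *Cd248* in V by 0.65, and 9 did not pass the threshold. Over all genes tested, 16% were higher in LA and 17.6% in V. Of 12 Schwann cell genes, *Mbp*, or myelin basic protein, was at 11.69, 11.60, 11.10 and 11.64 in LA and between 7.24 and 9.32 in V, higher in LA by 3.20 (4.81 by its other probe), and *S100b* by 1.46. No Schwann cell gene passed the threshold with V higher, against 3 after normexp, 2 without LA replicate 1 or LV replicate 4 and 1 without RV replicate 2. At an unadjusted p below 0.05 by limma, 3 had V higher. Of 18 genes of autonomic neurons, *Uchl1* was higher in LA by 1.02 and *Dbh* in V by 0.45. The count in V was 0 without LA replicate 1, where *Dbh* had an adjusted p of 0.071, 2 without LV replicate 3 and 5 after normexp. Of 11 adipocyte genes, 3 were higher in LA and 2 in V. *Adipoq* and *Retn* were higher in LA by 3.18 and 3.35, or by 2.90 and 3.19 with undetected arrays raised, since 3 and 4 of the V arrays were well above background, and *Fabp4* was higher in V by 1.12. Of 9 genes of lung epithelium, 3 were higher in V, or 5 without LA replicate 4 and 6 after normexp. *Sftpc* was higher by 2.76 and *Napsa* and *Ager* by 0.86 each. Of 8 genes of endocardium and lymphatic vessels, 4 were higher in LA and 1 in V (2 in LA without LA replicate 1 or 2), with *Pdpn* higher in LA by 1.41. Of 7 genes of the sinoatrial pacemaker, 4 were higher in LA and 2, *Hcn4* and *Tbx3*, in V.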

How the data were processed

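RNA of 23 rat heart samples was hybridised, each on its own 1-colour array. Per the file headers and the methods, the authors scanned the arrays, subtracted background and removed spatial trends with Agilent Feature Extraction 11.0.1.1, and deposited signal intensity values per probe, scaled to the 90th percentile of each array. On every array at least 99.56% of the deposited values lay within 2% of the scanner intensity times 1 factor (0.881 to 1.52), and no spot was saturated. Precision is limited by the number of arrays.

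Of 45598 probes, 45440 had a value on every array, and 21047 of them were named through RefSeq accessions (16544 genes, of which 3638 had several probes). A gene's level on an array was that of its brightest probe there, as log2(deposited intensity + 1). A probe was well above background where the scanner software marked at least 50% of its spots so. Genes above 4 on at least 1 of the 11 arrays were tested by limma 3.58.1 (lmFit and eBayes, R 4.3.3) with Benjamini-Hochberg adjustment and a threshold of 0.05. LA (4 arrays) was set against V (7), without a block. LV against RV came from a fit of 3 groups, and LA against SA from a fit of 6 regions. The methods used an analysis of variance, which was run as an alternative. On simulated data with 200 genes of 15633 changed by 1 log2 unit between LA and V, 64% were called and 1.54% of the calls were false. The simulated noise was independent between arrays, and far fewer genes changed than the 33.5% called in the data. These shares therefore do not give the error rates of the real comparison.

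The members and lists were chosen with earlier results of these data known. Named genes were called genes without overlap between LA and V, namely the 12 largest differences in each direction among genes detected on all 11 arrays, up to 6 by lower bound among genes dim on the other side, 4 among those dim on some arrays of the other side, up to 3 in each direction from each list, and all members of the chamber lists and of the lists named by the study. Some genes that met this rule are not reported here. Of the 200 genes named, 37 fell outside it and were named after their values were seen.

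The array rows (2 per slide) and the 3 slides each held LA and V. With the slide or the row as a block, 4908 and 5231 genes differed between LA and V. All 180 called genes that the text names kept their direction within each slide and row, which the choice of genes without overlap fixes for most of them, and slide 1 held 1 LA and 1 V array. Whether replicate numbers pair the samples is not known. The alternatives were other scalings, normexp (on median spot and local background signals), filters, probe choices, pseudocounts, blocks, sets of arrays, and leaving out each array. Array probes were designed on rn4 by the authors' supplier, and no coordinate of that build is given. Promoter sequences came from a RefSeq table on GRCr8. The figures were drawn with matplotlib 3.10.9.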

Additional observations from a re-analysis of the deposited data

Results flagged for a closer look

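Some levels stood apart from the other arrays of their group by Dixon's test, which flags about 1 in 20 groups by chance. The test was run on each of the 200 genes named in the text, within LA, LV and V. About that share of groups stood apart, so the levels below are a description only. On RV replicate 2, 6 genes stood apart from the other V arrays. The levels were 9.09 for *Mybphl* (5.91 to 6.65 on the others), 7.79 for *Adipoq* (3.02 to 4.97), 7.48 for *Retn* (4.11 to 5.07), 8.19 for *S100b* (6.25 to 6.75), 3.5 for *Aldh1b1* (5.26 to 5.90) and 15.07 for *Slc25a4* (15.18 to 15.20). On RV replicate 1, *Gpr65* was at 4.98, below the other V arrays.

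Among the LV arrays, replicate 1 stood apart for *Rxfp1* at 8.60 (also among all V arrays, 6.95 to 7.56 on the others), *Gja3* at 8.23, *Sdhb* at 16.29 and *Mme* at 6.10 (also among all V arrays, 6.63 to 6.77). Replicate 2 did so for *Atp5f1e* at 18.10 and *Ppara* at 11.48, the latter among all V arrays, and replicate 3 for *Foxc1* at 9.32. Replicate 4 did so for *Cavin4* at 10.28, *Sftpc* at 7.45, *Kcna4* at 6.74 (also among all V arrays) and *Tbx5* at 4.96, the last among all V arrays.

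In LA, replicate 1 stood apart for *Irx2* at 3.57 (4.92 to 5.18 on the others) and *Oit3* at 6.10 (7.95 to 8.10). Replicate 2 did so for *Igfbpl1* at 4.95 and *Kcna4* at 7.56, replicate 3 for *Mbp* at 11.10 and *Nkg7* at 10.03, and replicate 4 for *Cdh5* at 9.57, *Jph3* at 5.00 (5.96 to 6.0 on the others) and *Vwf* at 14.14.

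For 11 of the genes named in the text, the LA minus LV and LA minus RV differences were unequal by the LV minus RV contrast of limma. It gave 4.62 for *Nppa* (adjusted p = 0.0035), 4.40 for *Penk* (0.00028), 2.48 for *Irx2* (0.0499), 1.53 for *Myot* (0.0445), 1.22 for *Hopx* (0.0352), 0.77 for *Xirp2* (0.0288) and 0.77 for *Pdlim5* (0.0431). It gave -1.60 for *Kcnd2* (0.0357), -1.07 for *Gja3* (0.032), -0.87 for *Kcnd3* (0.0445) and -0.87 for *Fmod* (0.0357). For *Myot*, *Kcnd2* and *Kcnd3*, LA against V as a whole did not pass the threshold.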

How the results depend on the processing

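The 3 counts of genes past the threshold were recomputed under 32 alternatives. Over the 11 fits that left out 1 array each, 4262 to 5289 genes differed between LA and V, with 2045 to 2536 higher in LA and 2217 to 2753 higher in V, and the lowest totals came without LA replicate 3. With RV alone as V, 3100 genes differed, 1510 higher in LA and 1590 in V, and with accessions that have no symbol kept, 8093 differed (3890 and 4203). Normexp gave 4133 genes higher in V and 2131 in LA. The median over all genes moved from -0.08 to -0.17 with normexp and to -0.01 with quantile normalization.

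The replicate block gave 4606 differing genes. Correlations of same-numbered samples ranged from -0.37 to 0.18. With so few arrays per group these values cannot tell whether samples of the same number share a rat. The block therefore does not speak to pairing.

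Of the 180 called genes in the text, 160 were past the threshold in every fit that tested them, and none changed sign. The other 20 lost the call in at least 1 fit. With RV alone as V these were *Adipoq*, *Atp5f1e*, *Cav2*, *Cd248*, *Dbh*, *Gpr65*, *Il18r1*, *Kcna4*, *Myh6*, *Ndufb2*, *Nos3*, *P2ry2*, *Retn*, *S100b*, *Tbx3*, *Thbs4*, *Tlr2* and *Tnnc1* (adjusted p from 0.0503 to 0.227). With quantile normalization they were *Atp5f1e* (adjusted p = 0.853), *Myh6* (0.924), *Ndufb2* (0.219), *P2ry10* (0.0569) and *Tnnc1* (0.0891), and with all 23 arrays in the fit *Csrp3* (0.266), *Dbh* (0.509), *Kcna4* (0.0542), *Myh6* (0.116) and *Tnnc1* (0.137). The call was also lost by *Ndufb2* with LV alone as V (0.07), by *P2ry10* with dim arrays at the floor (0.152), by *Dbh* with the replicate block (0.0656), and by *Dbh*, *Myh6*, *Ndufb2*, *Thbs4* and *Tlr2* without single LA replicates (0.0521 to 0.0839). The sign of genes not past the threshold turned as follows, and the cause was not tested. Quantile normalization gave 0.20 for *Atp2a2* (adjusted p = 0.026), 0.0215 for *Gja1*, 0.0745 for *Myh7*, 0.21 for *Myl4* and 0.0025 for *Ndufa10*. LV alone as V gave 0.10 for *Kcnd2* and -1.24 for *Nppb*, and RV alone gave 0.0691 for *Myl4* and 0.75 for *Myot* (adjusted p = 0.0445). Leaving out 1 array turned the sign of *Nppb* (range -0.3064 to 0.7181), *Myl4* (-0.1406 to 0.0319) and *Myot* (-0.3072 to 0.0915).

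Of 45 list counts of at least 4 genes, 18 fell by more than 1.5 times with RV alone as V, where fewer samples entered, and 4 or fewer did so when 1 array was left out. Genes that were not well above background on some arrays are limited by the signal there, and their differences depend on the floor.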
